A study of Mus musculus with 12 samples.

Results

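The endothelial leukocyte adhesion genes are 7 genes, Selp, Sele, Icam1, Icam2, Vcam1, Pecam1 and Cldn5, chosen by name and followed across 3 groups of mouse hearts. All 7 were among the 12866 genes listed in every library, and all 7 passed the filter on low values, as did 11509 of the 12866 genes. The hearts came from wild-type C57BL/6 mice. LPS+XJDHT mice received lipopolysaccharide (LPS) at 10 mg/kg together with Xijiao Dihuang decoction (XJDHT) at 50 mg/kg per day, LPS mice received the same LPS dose with saline, and Control mice received saline in place of both, in each case over 3 days. LPS, from the outer membrane of Gram-negative bacteria, triggers innate immune responses. XJDHT is a herbal formula of traditional Chinese medicine. Sex and age are not stated in the labels, nor is whether the hearts were perfused to clear blood. The series title sets the decoction against the loss of heart function in sepsis, and the groups were compared for differential expression.

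Leukocytes leave the blood in steps that these genes serve. P-selectin (Selp) and E-selectin (Sele) on activated endothelium slow passing leukocytes, ICAM-1 (Icam1), ICAM-2 (Icam2) and VCAM-1 (Vcam1) bind leukocyte integrins and hold the cells, PECAM-1 (Pecam1) at the cell borders guides their passage, and claudin-5 (Cldn5) seals the tight junctions between endothelial cells. Selectins, Icam1 and Vcam1 are known as genes that cytokines and LPS switch on through the transcription factor NF-kB, whereas Icam2 and Pecam1 are known as constitutive endothelial genes.

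After removal of ribosomal RNA, total RNA was sequenced in 12 libraries, 4 per group, with 73.8 to 77.8 M fragments each (M, mega). Expression is given in FPKM, fragments scaled by transcript length and library size, as the mean ± SD over 4 libraries, and log2 fold changes are on the scale of log2(FPKM + 1), which understates the change of low genes. Calls rest on limma with a Benjamini-Hochberg adjusted p under 0.05 over all 11509 genes. The p-values measure the spread between these libraries. The labels do not say whether each library is 1 mouse. In whole heart RNA, fewer cells of a type and less RNA per cell cannot be told apart. Cardiomyocyte markers fitted the tissue label, with 9 of 10 listed and summed levels of 8556 ± 1544 FPKM in LPS+XJDHT, 9153 ± 795 FPKM in LPS and 18323 ± 1009 FPKM in Control hearts. LPS+XJDHT replicate 2 stood apart from the other libraries: 4 Y-linked genes summed to 0.205 FPKM there and to between 20.4 and 61.9 FPKM in every other library, and the transcript Pecam1-203 was almost absent from it. Without it the cardiomyocyte sum of LPS+XJDHT was 7857 ± 804 FPKM (n = 3).

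In LPS hearts against Control hearts, 5 of the 7 adhesion genes rose, 0 fell, and Pecam1 and Icam2 did not pass the test. The background was high: of all tested genes 38.6% were called in this comparison, 26.6% as higher and 12% as lower. The libraries of the groups did not overlap for 6 of the 7 genes, and for 37.4% of all genes. The median log2 fold change was 1.86 over the 7 genes and 0.16 over all genes tested. All 5 calls held in each of the 22 alternative settings tried. A scaling by the median ratio brings the median of all genes to 0.01 and splits all calls into 2145 higher and 2112 lower genes (50.4% higher), against 3063 higher and 1384 lower (68.9% higher) as reported; under it the 5 genes kept log2 fold changes between 0.89 and 4.14. Scaling by the endothelial markers gave 2179 higher and 1638 lower genes (57.1% higher).

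Selp, the selectin stored in endothelial granules and in platelets, had 26.03, 36.4, 13.9 and 20.7 FPKM in the 4 LPS hearts, against 0.494, 0.287, 0.191 and 0.105 FPKM in the 4 Control hearts. Every LPS library was far above every Control library. The log2 fold change was 4.25 ± 0.24 (SE; limma adjusted p = 5.1e-07), and the ratio of the group means without a pseudocount was 90.2. The Control values rest on 28 to 128 recovered fragments per library and the LPS values on 3703 to 9600. The locus lies on chromosome 1 (GRCm38, 164115264 to 164150026, plus strand), and 1 of its 5 annotated transcripts, Selp-205, was listed and carried the whole value.

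Sele, the selectin made anew by activated endothelium, lies beside Selp on chromosome 1 (164048234 to 164057677, plus strand). Its level was 8.95, 7.48, 8.82 and 7.88 FPKM in LPS hearts, against 0, 0.0183, 0 and 0 FPKM in Control hearts. It was the most even of the members among LPS libraries, and in Control it was listed at 0 in all but 1 library. The single Control value stands for 4 fragments, and the LPS values for 1672 to 1989. The log2 fold change of 3.20 ± 0.11 (limma adjusted p = 6.6e-09) depends on the pseudocount: it was 6.33 with a pseudocount of 0.1 and 11.05 in limma-voom on recovered fragments. For Selp the log2 fold change reached 6.62 among the same alternatives.

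Icam1, the ligand of the leukocyte integrins LFA-1 and Mac-1, was measured at 63.1, 74.7, 80.8 and 61.9 FPKM in LPS hearts, against 6.43, 6.55, 7.36 and 7.02 FPKM in Control hearts. The groups did not overlap, and the spread within each was small beside the gap between them. The log2 fold change was 3.17 ± 0.10 (limma adjusted p = 3.4e-09), a ratio of means of 10.3. Icam1 lies on chromosome 9 (21015985 to 21028817, plus strand). Of the 11 member transcripts tested, 7 were called and all as higher, where 25.6% of all transcripts were called, 17.3% as higher. For Icam1 the coding transcript Icam1-201 held nearly all of the level, with 69.1 ± 8.92 FPKM in LPS and 6.64 ± 0.342 FPKM in Control hearts. Icam1-202, a transcript that retains an intron, reached 1.09 ± 0.305 FPKM in LPS and 0.193 ± 0.106 FPKM in Control hearts (log2 fold change 0.80, limma adjusted p = 0.0025 over 18644 transcripts).

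The stretches before the start sites of Selp, Sele and Icam1 are shown because these are the members with the largest changes in LPS hearts. They are the 250 bases before the RefSeq start (GRCm38.p6, plus strand), at chr1:164115014-164115263 for Selp, chr1:164047984-164048233 for Sele and chr9:21015690-21015939 for Icam1. Capitals mark motif matches on either strand.
Selp promoter: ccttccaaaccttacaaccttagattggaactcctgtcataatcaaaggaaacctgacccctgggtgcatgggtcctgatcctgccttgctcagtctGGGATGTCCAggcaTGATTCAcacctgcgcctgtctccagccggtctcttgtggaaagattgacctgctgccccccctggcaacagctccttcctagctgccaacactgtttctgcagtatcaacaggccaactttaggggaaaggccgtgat
Sele promoter: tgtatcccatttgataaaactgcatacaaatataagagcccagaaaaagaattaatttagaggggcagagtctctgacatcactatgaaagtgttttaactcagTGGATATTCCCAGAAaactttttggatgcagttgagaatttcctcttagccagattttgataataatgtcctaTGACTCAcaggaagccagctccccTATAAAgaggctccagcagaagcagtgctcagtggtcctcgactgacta
Icam1 promoter: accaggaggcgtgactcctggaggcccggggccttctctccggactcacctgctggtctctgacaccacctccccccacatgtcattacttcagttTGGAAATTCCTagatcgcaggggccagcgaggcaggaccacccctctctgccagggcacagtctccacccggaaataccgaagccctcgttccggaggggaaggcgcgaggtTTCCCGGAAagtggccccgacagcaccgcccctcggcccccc
The windows searched also held the 50 bases after the start. None of these promoters held the full NF-kB consensus, which 8.46% of all 32851 promoters in the table held. A looser form of it, in which the base at the 5′ end is free, was found in 26.6% of all promoters and began 153 bases before the start in Selp, 146 bases before it in Sele and 154 bases before it in Icam1. In Icam1 a match on the opposite strand overlaps it. TGANTCA, the AP-1 motif, was found in 7.81% of promoters, and lies 139 bases before the start in Selp and 73 bases before it in Sele. TTCNNNGAA, the STAT motif, was found in 8.3% of promoters, and lies 140 bases before the start in Sele, overlapping the looser NF-kB match, and 42 bases before it in Icam1. TATAAA was found in 13.6% of promoters, and lies 49 bases before the start in Sele and 14 bases after the RefSeq start of Icam1, which is 45 bases upstream of the annotated start of Icam1-201. The interferon response motif was found in 3.44% of all promoters and in none of these. The Cldn5 window held matches only to the looser NF-kB form, 39 and 40 bases after the start, on opposite strands of the same stretch. A match is only a match of letters. Icam2, Vcam1 and Pecam1 had no entry in the promoter table.

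**Figure D1:**
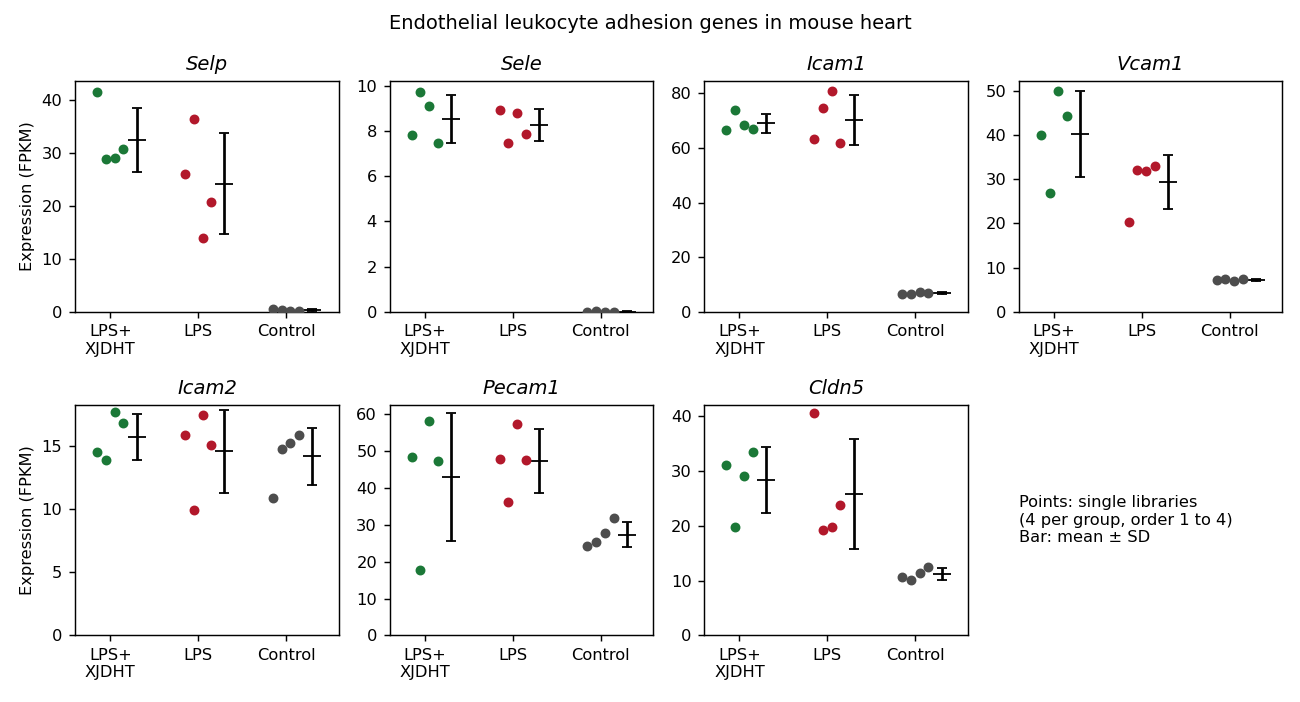
Expression (FPKM, linear axes from 0) of the 7 adhesion genes in LPS+XJDHT, LPS and Control hearts, 1 point per library and the mean ± SD beside them. Selp and Sele sat near 0 in Control libraries, Icam1 and Vcam1 were high in both LPS groups, Icam2 was level across groups, and 1 LPS+XJDHT library was low for Pecam1 at 17.8 FPKM.

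Vcam1, the ligand of the integrin VLA-4 on monocytes and lymphocytes, had 20.3, 32.2, 32.0 and 33.1 FPKM in LPS hearts, against 7.14, 7.40, 6.99 and 7.43 FPKM in Control hearts. Control libraries were almost equal, LPS replicate 1 was lower than the other LPS libraries, and the groups did not overlap. The log2 fold change was 1.86 ± 0.19 (limma adjusted p = 2.7e-05) and the ratio of means 4.06. The gene lies on chromosome 3 (116109949 to 116129688, minus strand).

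Both listed transcripts of Vcam1 rose. The long form Vcam1-201 was at 13.9 ± 2.72 FPKM in LPS and 5.65 ± 0.694 FPKM in Control hearts (log2 fold change 1.15, limma adjusted p = 0.00024, ratio of means 2.46). The short form Vcam1-203 had 7.82, 15.4, 16.5 and 22.3 FPKM in LPS hearts, against 1.52, 1.74, 2.17 and 0.909 FPKM in Control hearts. Its groups lay apart, with a log2 fold change of 2.61 (limma adjusted p = 0.00027) and a ratio of means of 9.77. The short form made up 51.3 ± 11.97% of the Vcam1 FPKM in LPS hearts and 22.03 ± 7.73% in Control hearts. That difference in share gave p = 0.0286 in an exact two-sided permutation test, the smallest that 4 against 4 libraries allow, and 0.0571 after Benjamini-Hochberg adjustment over 4 share tests, so it did not pass. With any single LPS or Control library left out, the share stayed higher in LPS, by 24.0 to 33.5 percentage points. These share tests were added after the data were seen.

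Vcam1-201 has 9 coding segments and 2217 coding bases, and Vcam1-203 has 5 and 1035, of which 4 segments are the same. The segment that only the short form has, with its stop codon in capitals, is shown because it is the coding stretch that sets this form apart (chr3:116123684-116123793, minus strand, 110 bases, exon 5 of 5). A short VCAM-1 that is anchored in the membrane by a lipid is known in the mouse.
Vcam1-203 last coding segment: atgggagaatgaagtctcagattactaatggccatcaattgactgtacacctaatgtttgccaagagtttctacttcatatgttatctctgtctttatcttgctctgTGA

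Cldn5, which limits the passage of small solutes between endothelial cells, was at 40.6, 19.2, 19.8 and 23.8 FPKM in LPS hearts, against 10.7, 10.1, 11.4 and 12.6 FPKM in Control hearts. The LPS libraries were uneven, with replicate 1 highest, yet the lowest of them exceeded the highest Control library. The log2 fold change was 1.08 ± 0.22 (limma adjusted p = 0.0027) and the ratio of means 2.31. Cldn5 has 1 exon on chromosome 16 (18776847 to 18778262, plus strand) and 1 listed transcript.

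Pecam1 was measured at 47.9, 36.0, 57.2 and 47.7 FPKM in LPS hearts, against 24.4, 25.3, 27.7 and 31.9 FPKM in Control hearts. The groups did not overlap, and the ratio of means was 1.73. Its log2 fold change of 0.76 ± 0.30 gave a limma adjusted p of 0.064. The fit takes its error from all 3 groups, and LPS+XJDHT replicate 2 lay far below the rest of its group. Without that library the same fold change gave an adjusted p of 0.0020, and the fit of LPS and Control alone gave 0.0052. Over all 23 alternatives Pecam1 passed in 4, with adjusted p between 0.0020 and 0.16.

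One Pecam1 transcript was almost absent from that library. Pecam1-203 had 21.2, 0.00406, 24.0 and 21.4 FPKM in LPS+XJDHT hearts, 21.3, 19.7, 22.5 and 22.9 FPKM in LPS hearts, and 5.91, 8.81, 10.4 and 10.7 FPKM in Control hearts. The value of LPS+XJDHT replicate 2 stands for 1 fragment, whereas the other LPS+XJDHT libraries had 5053 to 5870. The LPS and Control libraries did not overlap, although the transcript missed the threshold in the shared fit (log2 fold change 1.21, limma adjusted p = 0.33). Without LPS+XJDHT replicate 2 the same fold change passed (limma adjusted p = 0.00051). The other tested forms had lower ratios of means in LPS against Control, 1.27 for Pecam1-202 and 1.56 for Pecam1-204, and neither passed. Pecam1-203 made up 46.6 ± 6.49% of the Pecam1 FPKM in LPS hearts and 32.5 ± 5.73% in Control hearts (exact two-sided permutation p = 0.0286, adjusted over the 4 share tests 0.0571).

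Pecam1 lies on chromosome 11 (106654217 to 106750628, minus strand). Pecam1-203 lacks exon 14 of the 15 exons of Pecam1-202 (chr11:106671742-106671798, minus strand, 57 bases). The exon is shown in capitals with 15 bases of the transcript on each side, because it is what separates these forms. It belongs to the cytoplasmic tail of PECAM-1, where tyrosine motifs recruit phosphatases.
Pecam1 exon absent from Pecam1-203: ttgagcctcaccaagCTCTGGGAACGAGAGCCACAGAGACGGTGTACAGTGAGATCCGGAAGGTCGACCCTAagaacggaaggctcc

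Icam2, the constitutive integrin ligand of resting endothelium, had 15.9, 9.93, 17.5 and 15.1 FPKM in LPS hearts, against 10.9, 14.8, 15.3 and 15.9 FPKM in Control hearts. The groups overlapped almost fully. The log2 fold change was 0.02, with a 95% interval of -0.35 to 0.40 (limma adjusted p = 0.93), and its sign changed between alternatives. Icam2 lies on chromosome 11 (106377656 to 106388075, minus strand).

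**Figure D2:**
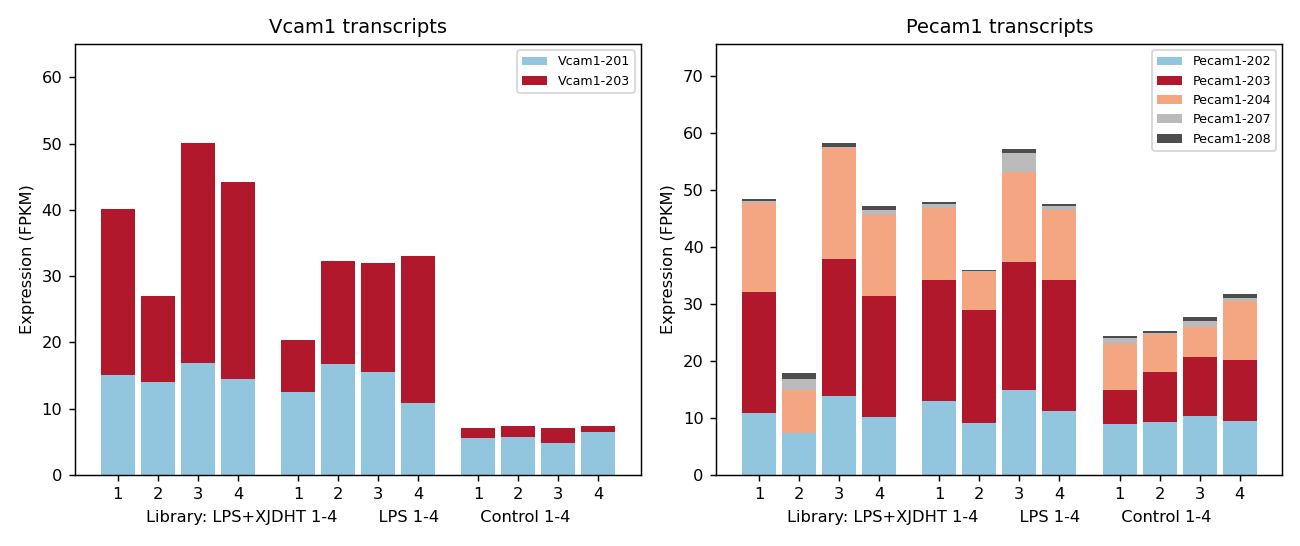
Expression (FPKM, stacked bars from 0) of the listed Vcam1 and Pecam1 transcripts in each of the 12 libraries, 4 LPS+XJDHT, 4 LPS and 4 Control. Vcam1-203 takes a larger share of Vcam1 in every LPS+XJDHT and LPS library than in any Control library, and Pecam1-203 is missing from LPS+XJDHT replicate 2.

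The order of the levels in FPKM was read within each group. In LPS+XJDHT hearts it ran Icam1, Pecam1, Vcam1, Selp, Cldn5, Icam2 and Sele, from 69.0 ± 3.46 to 8.55 ± 1.06 FPKM, and Pecam1, Vcam1, Selp and Cldn5 overlapped with their neighbours. The order was the same without LPS+XJDHT replicate 2, from 67.3 ± 1.01 to 8.15 ± 0.863 FPKM (n = 3). In LPS hearts it ran Icam1, Pecam1, Vcam1, Cldn5, Selp, Icam2 and Sele, from 70.1 ± 9.14 to 8.28 ± 0.713 FPKM. Vcam1, Cldn5, Selp and Icam2 each overlapped with their neighbour in that order, while Icam1, Pecam1 and Sele each stood clear of theirs. In Control hearts it ran Pecam1, Icam2, Cldn5, Vcam1, Icam1, Selp and Sele, from 27.3 ± 3.35 to 0.00457 ± 0.00915 FPKM, with overlap between Icam2 and Cldn5 and between Vcam1 and Icam1. Summed over the 7 genes, the level was 237.5 ± 31.5 FPKM in LPS+XJDHT, 219.8 ± 8.54 FPKM in LPS and 67.1 ± 6.32 FPKM in Control hearts. Without LPS+XJDHT replicate 2 it was 252.9 ± 7.71 FPKM in LPS+XJDHT (n = 3).

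The comparison of LPS+XJDHT with LPS hearts asks whether the decoction changed the response to LPS. None of the 7 genes passed (0 of 7 by limma and 0 of 7 by limma-voom), and 1 of them, Vcam1, had an unadjusted p under 0.05. Of all genes, 0.113% were called, all of them lower, and 4.79% had an unadjusted p under 0.05. The groups overlapped for each of the 7 genes, whereas 2.82% of all genes had groups apart. The median log2 fold change was 0.12 over the 7 genes and 0.03 over all genes. The smallest adjusted p among the members was 0.99, and 0 of 7 were called in every alternative.

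Selp had 41.6, 28.8, 29.0 and 30.7 FPKM in LPS+XJDHT hearts, against the LPS values given above. The difference was 0.47 on the log2 scale, with a 95% interval of -0.05 to 1.00, and lay at 0.24 without LPS replicate 3 and at 0.69 without LPS replicate 2. Vcam1 had 40.1, 27.0, 50.0 and 44.3 FPKM in LPS+XJDHT hearts. Its difference was 0.43, with a 95% interval of 0.02 to 0.85 and an unadjusted limma p of 0.042, and became 0.27 without LPS replicate 1 and 0.61 without LPS+XJDHT replicate 2 (adjusted p = 0.92 and 0.62). The means of both genes were higher in LPS+XJDHT, and the libraries of the groups overlapped.

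Sele reached 7.84, 9.74, 9.13 and 7.49 FPKM in LPS+XJDHT hearts, and Icam1 reached 66.4, 74.0, 68.4 and 67.1 FPKM. These were the most tightly bounded of the members. The 95% interval of the log2 difference from LPS ran from -0.20 to 0.28 for Sele and from -0.23 to 0.19 for Icam1. Their signs changed between alternatives.

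Cldn5 was at 31.1, 19.9, 29.1 and 33.4 FPKM, and Icam2 at 14.5, 13.9, 17.7 and 16.9 FPKM, in LPS+XJDHT hearts. The 95% intervals were -0.32 to 0.66 for Cldn5 and -0.25 to 0.50 for Icam2, around differences of 0.17 and 0.12. With 1 library left out, the Cldn5 difference lay between 0.055 (without LPS replicate 2) and 0.40 (without LPS replicate 1), and the Icam2 difference between -0.039 (without LPS replicate 2) and 0.21 (without LPS replicate 3). Pecam1 had 48.5, 17.8, 58.2 and 47.3 FPKM in LPS+XJDHT hearts, a difference of -0.24 (95% interval -0.89 to 0.41) that turned to 0.13 without LPS+XJDHT replicate 2. Without that library the differences of the other members were 0.52 for Selp, 0.33 for Cldn5, 0.18 for Icam2, -0.02 for Sele and -0.05 for Icam1, with 0 of 7 called. These intervals do not show that the groups were alike.

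Vcam1-203 stood at 24.96, 12.9, 33.1 and 29.9 FPKM in LPS+XJDHT hearts. Its mean was 25.2 ± 8.83 FPKM there and 15.5 ± 5.93 FPKM in LPS hearts (log2 difference 0.67, limma adjusted p = 0.98). Without LPS+XJDHT replicate 2 the difference was 0.95 (limma adjusted p = 0.80). Its share of Vcam1 was 61.0 ± 8.94% in LPS+XJDHT and 51.3 ± 11.97% in LPS hearts (exact two-sided permutation p = 0.286, also after adjustment, and 0.171 without LPS+XJDHT replicate 2).

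**Figure D3:**
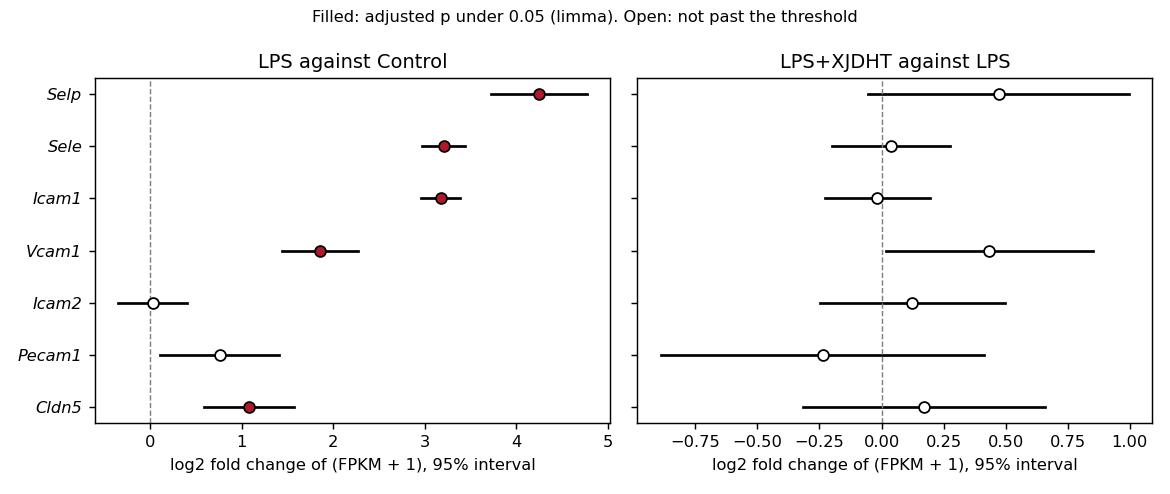
Log2 fold changes on the log2(FPKM + 1) scale with 95% intervals for the 7 adhesion genes, LPS against Control on the left and LPS+XJDHT against LPS on the right, filled where the limma adjusted p was under 0.05. On the left 5 genes lie above 0 and pass, and on the right none passes. The horizontal axes differ.

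LPS+XJDHT hearts were also compared with Control hearts, which shares libraries with both comparisons above. The same 5 genes were called higher, while of all genes 39.2% were called, 28.5% as higher. The median log2 fold change was 2.29 over the 7 genes and 0.19 over all genes. Scaling by the median ratio split the calls of all genes into 1967 higher and 2044 lower (49.0% higher), and scaling by the endothelial markers into 1798 higher and 1749 lower (50.7% higher), against 3278 higher and 1234 lower (72.7% higher) as reported. Values were 4.72 for Selp, 3.24 for Sele, 3.16 for Icam1, 2.29 for Vcam1 and 1.25 for Cldn5, beside 4.25, 3.20, 3.17, 1.86 and 1.08 in LPS against Control. All 5 calls held without LPS+XJDHT replicate 2. Pecam1 had a log2 fold change of 0.52 (limma adjusted p = 0.19) and passed without LPS+XJDHT replicate 2 (0.89, adjusted p = 0.0014).

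Other genes of the adhesion cascade were read in LPS against Control by role, from 8 lists with 92 tested genes. For these lists and the cell type lists below, the share of all genes called was 26.6% as higher and 12% as lower. Counts near these shares are not particular to a list. Of the selectin ligands and the enzymes that build their sugars, 3 of 9 rose, 1 fell and 5 did not pass, with a median log2 fold change of 0.33 beside 0.16 for all genes. Cd24a, a ligand of P-selectin, was at 10.8 ± 2.95 FPKM in LPS and 2.04 ± 0.421 FPKM in Control hearts (log2 fold change 1.93, limma adjusted p = 3.0e-05). The hyaluronan receptor Cd44 rose by 1.61. Podxl, a sialomucin of the vessel lumen, fell by 0.51, a call lost without Control replicate 3 (adjusted p = 0.055). St3gal4 at -0.28 and B4galt1 at -1.28 did not pass, and B4galt1 had LPS libraries spread over 11.5 ± 11.5 FPKM. B4galt1 passed without LPS replicate 1 and with quality weights, and St3gal4 without LPS replicate 3 and under median-ratio scaling.

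Of the leukocyte integrins and their activators, 4 of 5 tested genes rose and 0 fell (median 1.17). Itgb2, the common beta chain of LFA-1 and Mac-1, was at 13.2 ± 4.78 FPKM in LPS and 3.17 ± 1.22 FPKM in Control hearts (log2 fold change 1.74, limma adjusted p = 0.00031). Itgam, the alpha chain of Mac-1, rose by 2.50, although its LPS and Control libraries overlapped. The integrin activators Tln1 and Fermt3 rose by 0.73 and 1.16. Itgb1, the beta chain of VLA-4, varied more within groups than between them, with 14.0 ± 9.67 FPKM in LPS and 8.26 ± 10.4 FPKM in Control hearts.

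Of the other endothelial adhesion molecules, 4 of 14 rose, 3 fell and 7 did not pass (median 0.19). Mcam, an endothelial adhesion molecule, was at 41.0 ± 10.5 FPKM in LPS and 16.4 ± 1.96 FPKM in Control hearts (log2 fold change 1.25, limma adjusted p = 0.00018). Bst1, a surface enzyme of leukocytes and endothelium, rose by 1.77, and Cx3cl1, the chemokine that is itself an adhesion molecule, by 0.97. Ackr1, the chemokine receptor of venules, was at 1.57 ± 1.03 FPKM in LPS hearts and was listed at 0 in all Control hearts. Aoc3, Cd99l2 and Stab1, named after their values were seen, fell by 0.75, 0.38 and 0.46. Nectin2 at 0.28 and Cd47 at 1.33 did not pass, though Cd47 passed without LPS replicate 3.

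The junction and barrier genes gave 3 of 16 higher and 0 lower, with 13 not called (median 0.26). S1pr1, the receptor through which sphingosine-1-phosphate steadies the endothelial barrier, was at 63.1 ± 9.96 FPKM in LPS and 38.1 ± 2.87 FPKM in Control hearts (log2 fold change 0.70, limma adjusted p = 0.00029). The alpha-catenin Ctnna1 rose by 0.43 and the junction scaffold Magi1 by 0.67. The Ctnna1 call was lost under median-ratio and endothelial scaling, and that of Magi1 without Control replicate 2 or LPS replicate 1 and when transcripts missing from the LPS+XJDHT files were added. Tjp1, a tight junction scaffold, was at -0.46 (adjusted p = 0.060), and passed as lower in 6 alternatives. Cldn12 at 0.93 passed only without LPS replicate 3.

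Among genes of the Weibel-Palade bodies, the granules that hold P-selectin, 4 of 12 rose, 0 fell and 8 did not pass (median 0.28). Plat, tissue plasminogen activator, was at 45.2 ± 13.4 FPKM in LPS and 12.3 ± 0.713 FPKM in Control hearts (log2 fold change 1.76, limma adjusted p = 2.1e-05). Cd63, which keeps P-selectin at the cell surface, rose by 1.41, Angpt2, which loosens the endothelium, by 1.18, and the fusion protein Vamp3 by 0.37, the last lost under both scalings. Vwf, the main cargo of these granules, had 3.04 ± 0.632 FPKM in LPS and 2.03 ± 1.05 FPKM in Control hearts and did not pass.

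Of 20 regulators known to act on the adhesion genes, 7 rose, 1 fell and 12 did not pass (median 0.02, beside 0.16 for all genes). That is near the 38.6% of all genes called in either direction. Nfkbia, the inhibitor that NF-kB itself induces, was at 77.1 ± 14.2 FPKM in LPS and 22.8 ± 2.72 FPKM in Control hearts (log2 fold change 1.70, limma adjusted p = 1.0e-05). The receptor genes Tnfrsf1a and Il1r1 rose by 1.57 and 2.38, and the NF-kB subunit Nfkb2 by 1.20. Jun, named after its values were seen, fell by 0.49. Klf4, which restrains endothelial inflammation, was at -0.42 (adjusted p = 0.052) and Fos at 0.61. Klf4 passed as lower in 6 alternatives and Fos passed without LPS replicate 4.

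Of 7 genes for the sheddases that cut adhesion molecules from the cell surface and for their regulators, 5 rose and 1 fell (median 0.54). Adam8 was at 6.70 ± 2.57 FPKM in LPS and 0.0169 ± 0.0208 FPKM in Control hearts (log2 fold change 2.85, limma adjusted p = 3.7e-06). Mmp14 and Mmp9 rose by 1.73 and 1.16. Adam17, which sheds VCAM-1 among other surface proteins, fell by 0.28, a call lost without Control replicate 1 or 4. Adam15 at 0.35 did not pass.

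The actin linkers, which anchor ICAM-1 and VCAM-1 beneath a bound leukocyte, gave 6 of 9 higher, 0 lower and 3 not called (median 0.82). Moesin (Msn) was at 231 ± 57.5 FPKM in LPS and 61.5 ± 2.95 FPKM in Control hearts (log2 fold change 1.86, limma adjusted p = 6.4e-06). Cttn rose by 1.53, the kinase gene Src by 0.82 and Actn4 by 1.01, whereas Rdx at 0.21 and Flna at 0.38 did not pass. In LPS+XJDHT against LPS none of the 92 genes passed (0 by limma, 0 by limma-voom), and 8 had an unadjusted limma p under 0.05. Of all genes, 0.113% were called by limma and 4.79% had an unadjusted limma p under 0.05. Without LPS+XJDHT replicate 2 limma called 0 of the 92 genes, and 9 of the 92 had an unadjusted p under 0.05.

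**Figure D4:**
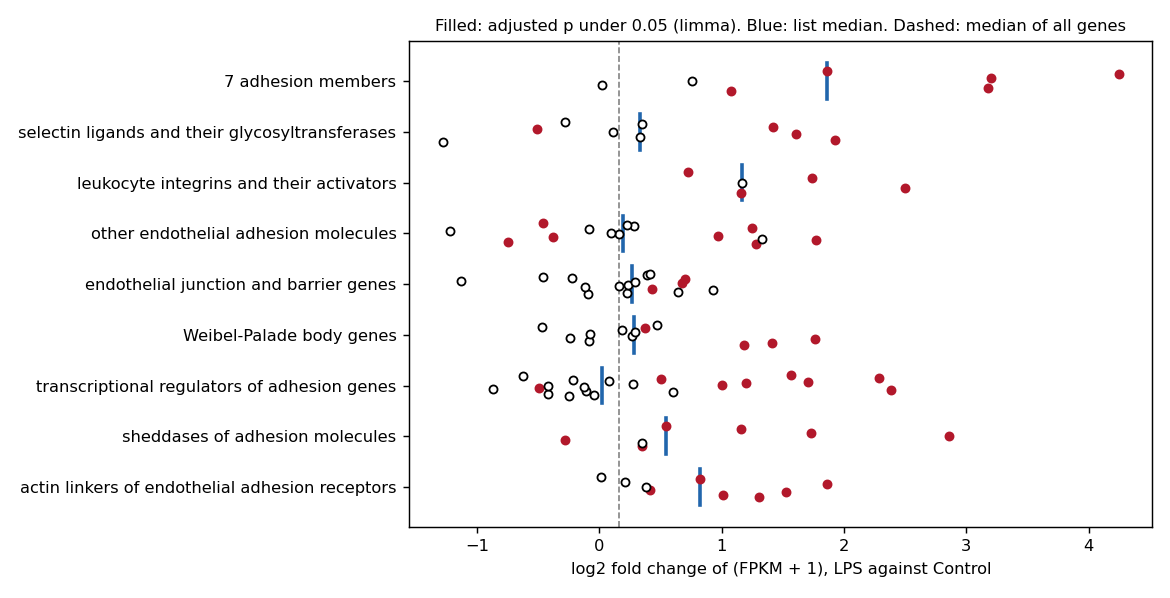
Log2 fold changes of LPS against Control on the log2(FPKM + 1) scale for the 7 adhesion members and for the tested genes of 8 related lists, filled where the limma adjusted p was under 0.05, with list medians in blue and the median of all genes (0.16) dashed. The members reach further to the right than most related genes, and each list also holds genes that did not pass.

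Most endothelial markers other than the members were not called. Of 20 tested in LPS against Control, 3 rose (Ecscr by 1.75, Mmrn2 by 0.76 and Clec14a by 0.50), 0 fell and 17 did not pass, with a median of 0.10. Summed, they reached 438.6 ± 21.9 FPKM in LPS+XJDHT, 417.5 ± 42.8 FPKM in LPS and 364.3 ± 15.2 FPKM in Control hearts. Every LPS+XJDHT library lay above every Control library, a pair of groups whose sums were not tested. In LPS+XJDHT against Control 6 of the 20 markers were called higher and 0 lower, where 28.5% of all genes were called higher. Exact two-sided permutation tests gave p = 0.457 for LPS+XJDHT against LPS (0.571 without LPS+XJDHT replicate 2) and p = 0.0857 for LPS against Control. After each library was shifted by the mean level of these markers, the log2 fold changes of LPS against Control were 4.14 for Selp, 3.10 for Sele, 3.07 for Icam1, 1.76 for Vcam1 and 0.98 for Cldn5, and all passed.

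The subtypes of endothelium moved in both directions. Capillary markers gave 3 higher and 2 lower of 8, with the carbonic anhydrase gene Car4 at 1.25 and the water channel gene Aqp1 at -0.90. Arterial markers gave 2 higher and 4 lower of 8 (median -0.52). Hey1, a Notch target, was lowest at -2.07, and the 2 higher markers were Gja4 at 0.48 and Sema3g at 0.86. The capillary and arterial genes named here were picked after their values were seen. Venous markers gave 2 higher and 2 lower of 7, and 1 of 4 lymphatic markers rose.

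Cells other than endothelium also make some members. Platelets carry Selp, and of 12 platelet markers 3 were listed and 2 tested. Pf4 rose by 1.31, whereas Ppbp was at -0.34 and did not pass. The list summed to 33.2 ± 5.15 FPKM in LPS+XJDHT, 50.7 ± 5.24 FPKM in LPS and 21.8 ± 5.49 FPKM in Control hearts. Most of each sum was Pf4 alone, at 31.7 FPKM in LPS+XJDHT, 48.8 FPKM in LPS and 19.6 FPKM in Control hearts. Of 10 neutrophil markers 8 were listed and 5 tested, and all 5 rose. Camp, Csf3r and Ltf stayed under the filter. Ngp, Retnlg, Mmp8 and S100a8 averaged 0.078, 0.106, 0.0625 and 0.517 FPKM in Control hearts, under the 1 FPKM limit. They entered the test only through the LPS and LPS+XJDHT libraries, so the count of 5 was largely set by the filter. Sums of the list were 114.8 ± 32.4 FPKM in LPS+XJDHT, 105.9 ± 17.9 FPKM in LPS and 2.08 ± 0.621 FPKM in Control hearts. Monocyte and macrophage markers, from cells that share Icam1 and Pecam1, gave 5 higher and 0 lower of 12, with sums of 255.0 ± 65.1 FPKM in LPS+XJDHT, 302.2 ± 131 FPKM in LPS and 268.6 ± 55.3 FPKM in Control hearts. Of these sums, Lyz2 alone was 55.0 FPKM in LPS+XJDHT, 70.3 FPKM in LPS and 140.7 FPKM in Control hearts, and did not pass. The sums therefore do not show how the other markers of the list moved. The part of platelets, neutrophils, monocytes and macrophages in the members' levels was not tested.

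Among the remaining lists, fibroblast markers gave 4 higher and 1 lower of 9, pericyte and smooth muscle markers 0 higher and 3 lower of 10, cardiomyocyte markers 0 higher and 5 lower of 9, and erythroid markers 0 higher and 3 lower of 5. None of 3 mesothelial markers passed (0 of 3 by limma). The only T and natural killer cell marker tested, Gzma, rose by 1.35, and no B cell marker was tested. Gzma averaged 0.087 FPKM in Control hearts and passed the filter only through the LPS and LPS+XJDHT libraries. Fibroblasts and smooth muscle cells can make Vcam1 and Icam1, and the fibroblast sum was 988.3 ± 184.7 FPKM in LPS+XJDHT, 933.9 ± 110.0 FPKM in LPS and 560.1 ± 57.1 FPKM in Control hearts. Most of each sum was Dcn alone, at 676.5 FPKM in LPS+XJDHT, 651.4 FPKM in LPS and 303.6 FPKM in Control hearts. The part of fibroblasts in the members' levels was not tested either. Without LPS+XJDHT replicate 2 the LPS+XJDHT sums were 34.1 ± 5.86 FPKM for platelet, 127.8 ± 23.4 FPKM for neutrophil, 279.7 ± 51.8 FPKM for monocyte and macrophage and 1074 ± 87.1 FPKM for fibroblast markers (n = 3).

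**Figure D5:**
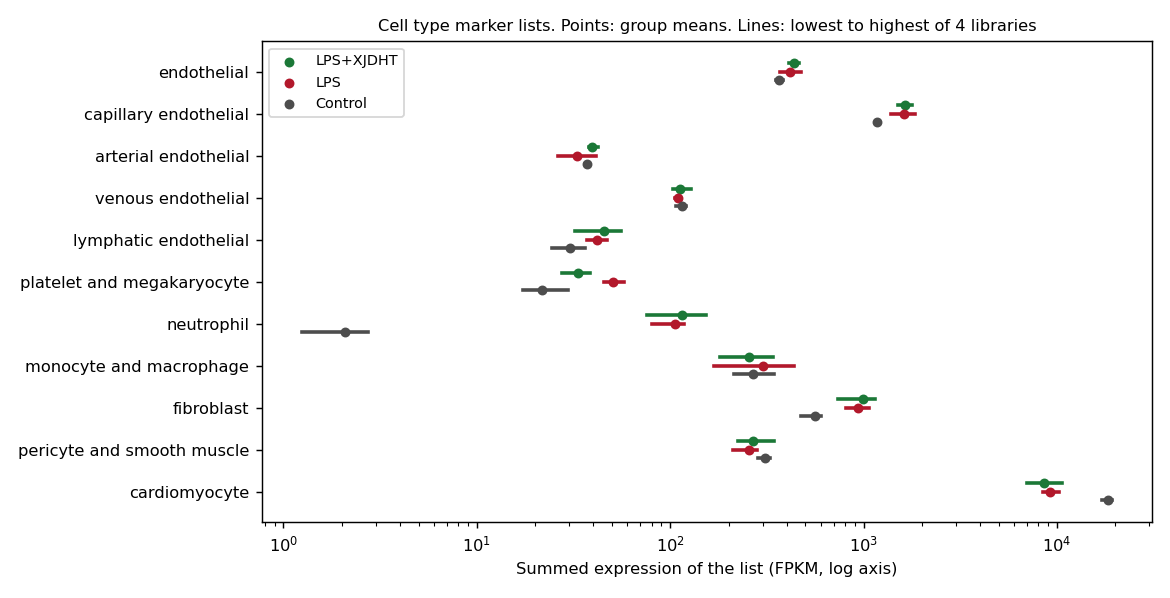
Summed FPKM (log axis) of cell type marker lists in LPS+XJDHT, LPS and Control hearts, with points for group means and lines from the lowest to the highest of 4 libraries. Endothelial sums run from 410 to 463.4 FPKM in LPS+XJDHT, 367.3 to 471.6 FPKM in LPS and 351.4 to 383.8 FPKM in Control libraries. Neutrophil markers are near 2 FPKM in Control and above 75 FPKM in every LPS and LPS+XJDHT library. Cardiomyocyte markers are lower in both LPS groups.

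For each member the genes nearest in pattern were found by the root mean square difference over the 12 libraries of log2(FPKM + 1) centred on Control. Nearest to Selp were Ptx3, a pentraxin of innate immunity, at 0.29, then Chil1 at 0.33 and Lgals3bp at 0.35. Sele and Icam1 shared the nearest gene, Upp1, a uridine phosphorylase, at 0.28 from each, and Lox, lysyl oxidase, among their 3 nearest. Chil3 completed the set for Sele and Arg1 for Icam1. Vcam1 lay nearest to Wfdc21 at 0.23, which was listed at 0 in every Control heart, then to Cd24a and H2-T22. Pecam1 lay nearest to Tdrd7 at 0.22, then Nampt and Myof, and Cldn5 to Dtx4 at 0.20, then Man2a1 and Fam43a. Icam2 lay nearest to Ap4m1 at 0.11, then Slc25a27 and Eif2d.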

How the data were processed

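Each of the 12 deposited files lists transcripts with a value for 1 library of rRNA-depleted total RNA. Their unit was read from the values as FPKM made by the authors. Values were multiplied by transcript length and divided by a constant found for each library. Of the low values, which stand for few fragments, 98.1% to 98.5% then gave whole fragments (within 0.1). The constant was found from low values too, and gave 73.8 to 77.8 M fragments (M, mega) in a library. Higher values were not checked in this way. The submitters' processing notes name mm10 and limma; the aligner is not given in the sources used here. LPS+XJDHT files list 35802 transcripts, and LPS and Control files 36293; of the 33137 in all of them, 24723 are in GENCODE vM21 (GRCm38). The FPKM of these annotated transcripts were summed to 12866 genes. Left out were transcripts that the authors assembled without an Ensembl identifier, 10120 counted over the 12 files together. Gene levels and transcript shares do not count any fragments assigned to them.

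The 11509 genes that reached 1 FPKM in 4 or more libraries were fitted as log2(FPKM + 1) with limma 3.58.1 (empirical Bayes with trend, R 4.3.3), 1 mean per group, no covariate, Benjamini-Hochberg adjusted p under 0.05, two-sided; 18644 transcripts likewise. The fit was tested on simulated data. Sums and shares were compared by exact permutation tests (SciPy 1.17.1). Groups follow the labels. Members, lists (8 of pathways, 15 of cell types) and tests were chosen with earlier results of these data known. Genes named from each pathway list are up to 4 with the smallest adjusted p among those that passed and up to 2 among those that did not, in LPS against Control; the 3 nearest genes per member exclude predicted genes. Some genes that this rule names are not reported here. 1 list symbol shared by 2 genes was left out. Alternatives were filters (none, 5 FPKM), pseudocounts (0.1, 0.5), fewer groups, a 2-fold minimum, each library left out, quality weights, 2 scalings, limma-voom on recovered fragments and all transcripts of the LPS and Control files; Pecam1 without Pecam1-203, and sums and transcripts without LPS+XJDHT replicate 2, were added after the data were seen. Promoters come from RefSeq (GRCm38.p6; 4 of 7 members matched), exon sequences from GENCODE.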

Additional observations from a re-analysis of the deposited data

Results flagged for a closer look

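In 4 of 48 groups of 4 libraries, 1 library lay far from the others by Dixon's test; chance gives about 5% of groups. Selp in LPS+XJDHT replicate 1 was 41.6 FPKM, with the other 3 libraries of its group between 28.8 and 30.7 FPKM. Vcam1 in LPS replicate 1 was 20.3 FPKM, with the others between 32.0 and 33.1 FPKM. Sele in Control replicate 2 was 0.0183 FPKM, which stands for 4 fragments, with the others listed at 0. Pecam1-203 in LPS+XJDHT replicate 2 was 0.00406 FPKM, with the others between 21.2 and 24.0 FPKM. The Y-linked genes summed to 0.205 FPKM in the same library.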

How the results depend on the processing

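No paired analysis was possible because the labels share no number between groups, and the replicate numbers used here only name libraries in order of accession. The 5 member calls in LPS against Control and the 5 in LPS+XJDHT against Control held in every alternative tried, and 0 of 7 were called in LPS+XJDHT against LPS in every one. With a 2-fold minimum, 1258 of the 4447 genes called in LPS against Control were left, and 1217 of the 4512 in LPS+XJDHT against Control. In LPS+XJDHT against LPS, 13 genes were called, 43 without a filter and 1 with a 5 FPKM limit, and between 4 and 16 when 1 library was left out, 4 without LPS replicate 1 or 4, 5 without LPS replicate 2 and 7 without LPS replicate 3. Values that turned in sign were all uncalled. The summed endothelial markers turned from a difference of 53.2 to -1.76 FPKM under median-ratio scaling (exact permutation p = 0.886). Icam2 in LPS against Control became -0.16 under that scaling, -0.077 under endothelial scaling, -0.0047 in limma-voom and between -0.089 and 0.19 with 1 library left out; in LPS+XJDHT against Control it became -0.083 and -0.036 under these scalings. In LPS+XJDHT against LPS, Sele became -0.0050 and -0.045 under them, Icam1 0.013 with quality weights and Pecam1 0.048 without Pecam1-203. With 1 library left out, that comparison gave between -0.021 and 0.092 for Sele, -0.072 and 0.054 for Icam1, -0.039 and 0.21 for Icam2, and -0.42 and 0.13 for Pecam1. Vwf in LPS against Control became -0.087 with transcripts missing from the LPS+XJDHT files added. The cause was not tested. Of the member transcripts 7 were called, 6 with a 5 FPKM limit and 8 without LPS+XJDHT replicate 2, where Pecam1-203 was added; its difference between LPS+XJDHT and LPS turned from -1.09 to 0.037 without that library. All transcripts of a pair of groups were not summed for comparisons with LPS+XJDHT, since that set is the one used. Depth limits Selp and Sele in Control hearts, where 128 fragments or fewer stand behind each value, so their fold changes depend on the pseudocount.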
